A study of Mus musculus with 74 samples.

Results

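Read counts of 7 genes of the secreting stomach were followed through every RNA-seq library of a mouse gut study. The genes were taken by name: Cym, Pgc, Pga5, Gif, Atp4a, Atp4b and Bhlha15. All 7 were found among the 24015 gene symbols of the count table, and their values cover 31 libraries in 15 groups. The name given to the set, gastric protease and acid secretion genes, covers 5 of them by function; Gif encodes a vitamin B12 carrier and Bhlha15 a transcription factor.

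The mouse glandular stomach makes acid and proteases in separate cells. Chief cells release inactive aspartic proteases that acid converts into pepsins, and in the mouse they also make intrinsic factor. Parietal cells make the acid with a proton pump, an ATPase that trades potassium for protons across their membrane. Both cell types mature around and after birth, so embryonic epithelium is usually described as holding their precursors. Cym encodes chymosin, the milk-clotting protease of suckling animals. Pgc encodes progastricsin (pepsinogen C) and Pga5 a pepsinogen A. Gif encodes gastric intrinsic factor, which carries vitamin B12 to the ileum. Atp4a encodes the catalytic subunit of the proton pump, and Atp4b its glycosylated partner. Bhlha15, also called Mist1, encodes a transcription factor of mature secretory cells, chief cells and pancreatic acinar cells among them.

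The WT embryos were CD1 mice. At E12, E14 and E16 they gave forestomach (the squamous part of the mouse stomach), hindstomach (the glandular part) and small intestine, and at E18 small intestine alone, with 2 libraries in each group. The E12 and E14 intestinal cells are labelled as midgut. Cdx2, a homeodomain factor of the intestinal epithelium, was the deleted gene in the other embryos, which were Cdx2f/f on a B6;129 mixed background. With Shh-Cre, which is active early in gut endoderm, the deletion is dated to E10 and the intestine was taken at E16 (3 libraries). With Villin-Cre, which is driven by an intestinal epithelial promoter, and 5 mg of oral tamoxifen, deletion is dated to E13 with collection at E16 (2 libraries), or to E15 with collection at E18 (2 libraries). Adult ileum villi came from Cdx2f/f; Villin-Cre mice given 1 mg of tamoxifen by injection on 5 days (2 libraries) and from Cdx2f/f mice without Cre given oil on 5 days (2 libraries). In the embryos the genotype label and the strain change together and cannot be told apart, while both adult groups share strain and floxed alleles. The labels do not say whether replicates came from separate animals or litters, so the p-values measure the spread between these libraries.

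Values are raw counts and CPM, the counts scaled to a common library size after TMM adjustment, with embryonic and adult libraries scaled apart. Total counts ran from 5970227 to 62463167 per library. The floor was set at 3 counts per library, which covers counting error only, and a fold against a group at the floor is given as a bound. A gene was called when edgeR's quasi-likelihood test gave a Benjamini-Hochberg adjusted p below 0.05 over all genes tested and the size of the log2 fold change reached 1. Each adjusted p given here comes from that test unless DESeq2 is named. All 7 genes passed the filter on low counts in the embryonic fit of 17239 genes, and 3 of 7 passed in the adult fit of 12444.

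Several groups stood apart from their labels. Mean Cdx2 was 207 CPM in E16 WT intestine and 19.8 in the libraries labelled deleted at E10. It was 215 in those labelled deleted at E13, 380 in those labelled deleted at E15 against 203 in E18 WT, and 467 in the adult libraries labelled knockout against 245 in the adult controls. The counts do not show whether reads came from the floxed part of the gene, so "knockout" and the dates of deletion are used as labels only, and the 3 embryonic groups are called E10-, E13- and E15-labelled. The libraries labelled hindstomach at E12 held 138 CPM of Cdx2, close to the 134 of E12 intestine, against 9.45 in hindstomach at E14. The 2 forestomach libraries at E16 were the shallowest, and 4 general epithelial markers made up 0.0739% to 0.0826% of their counts, against 0.578% to 0.606% in hindstomach at E16. All 10 mesenchyme and muscle markers were detected in both, at 2.57% to 3.14% against 0.863% to 0.897%. In bulk libraries, fewer cells of a type and less RNA per cell cannot be told apart.

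The promoters of 3 members are printed because the results below turn on these genes: Cym and Pgc move in opposite directions in the libraries labelled deleted at E13 and at E15 (both rise in those labelled deleted at E10), and Atp4a parts from its partner subunit. The sequences are from RefSeq on build GRCm38.p6, 250 bases before to 50 after the annotated start. They lie at chr3:107221683-107221982 on the minus strand (Cym), chr17:47726592-47726891 on the plus strand (Pgc) and chr7:30711959-30712258 on the plus strand (Atp4a). Of the 7 genes, 5 matched an entry, Gif under its current symbol Cblif; Pga5 and Atp4b had none. Capitals mark 3 motifs. One is TATAAA, the TATA box. Another, the core bound by factors such as Gata4, is GATAAG, which appears in the printed strand as its reverse complement CTTATC. The last, an E box, is CAGCTG.
Cym: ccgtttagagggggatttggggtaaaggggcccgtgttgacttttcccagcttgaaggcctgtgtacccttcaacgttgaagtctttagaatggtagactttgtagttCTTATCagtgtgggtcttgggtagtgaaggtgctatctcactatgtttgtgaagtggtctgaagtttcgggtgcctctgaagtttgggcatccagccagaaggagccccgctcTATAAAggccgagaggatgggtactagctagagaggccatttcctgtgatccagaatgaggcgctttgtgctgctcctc
Pgc: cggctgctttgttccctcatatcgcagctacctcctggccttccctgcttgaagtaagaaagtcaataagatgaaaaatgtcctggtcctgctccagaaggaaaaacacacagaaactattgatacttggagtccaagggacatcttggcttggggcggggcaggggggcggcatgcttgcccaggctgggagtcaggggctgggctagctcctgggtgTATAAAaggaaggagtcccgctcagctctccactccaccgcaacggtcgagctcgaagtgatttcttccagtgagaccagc
Atp4a: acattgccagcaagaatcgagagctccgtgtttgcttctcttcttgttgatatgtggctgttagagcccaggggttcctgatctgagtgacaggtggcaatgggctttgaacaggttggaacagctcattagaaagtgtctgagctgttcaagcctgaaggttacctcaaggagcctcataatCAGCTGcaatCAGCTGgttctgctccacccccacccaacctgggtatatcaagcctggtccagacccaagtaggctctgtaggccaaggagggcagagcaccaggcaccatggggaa
TATAAA began at -29 in Cym and -31 in Pgc, counted from the start site, and 13.6% of 32851 mouse promoter windows of this length hold it on either strand. GATAAG was found on the minus strand at -142 in Cym, and at -238 in the window of Bhlha15, against 7.44% of all windows. Atp4a held CAGCTG at -67 and again at -57, and 16.3% of windows hold this motif. TTTATG, a core of CDX binding sites, was searched on both strands and matched none of the 5 windows, against 11.9% of all windows. No marked motifs overlapped. These matches describe letters in a window.

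In WT epithelium the secretory genes separated the hindstomach from both other organs by E16. All 7 members were called higher in hindstomach than in small intestine at that stage, where 17.5% of all genes tested were called higher. The median log2 fold change of the 7 was 8.92, against 0.18 over all genes tested. Against forestomach at E16 all 7 were again called higher, with a median of 4.89 against 0.13 over all genes and 13.8% of genes called higher. Both contrasts use the same hindstomach libraries. Markers of other cell types also differed. Against E16 intestine, 9 of 10 mesenchyme and muscle markers were called higher in hindstomach (0.863% to 0.897% of counts against 0.144% to 0.157%), as were all 5 blood markers tested of 11 (0.129% to 0.181% against 0.0199% to 0.0206%; the adult globin genes Hba-a1, Hba-a2, Hbb-b1, Hbb-b2, Hbb-bt and Hbb-bs at 0 in both). All 6 squamous forestomach markers were called higher too (0.0169% to 0.0179% against 6.59e-05% to 9.29e-05%). All 8 enterocyte markers (0.0605% to 0.063% against 1.34% to 1.38%) and 7 of 11 Paneth and goblet markers were called lower. Against forestomach, 15 of 16 acinar markers tested were called higher in hindstomach (0.740% to 0.817% of counts against 0.0199% to 0.0288%, with Prss2 and Amy2a5 at 0 in forestomach), all 4 general epithelial markers were higher, and 6 of 10 mesenchyme markers were lower. All 5 blood markers tested (1.59% to 2.03% in forestomach) and all 6 squamous markers (0.441% to 0.492%) were also called lower in hindstomach. All 8 enterocyte markers were called higher there than in forestomach. The part of these markers in either result was not tested.

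**Figure D1:**
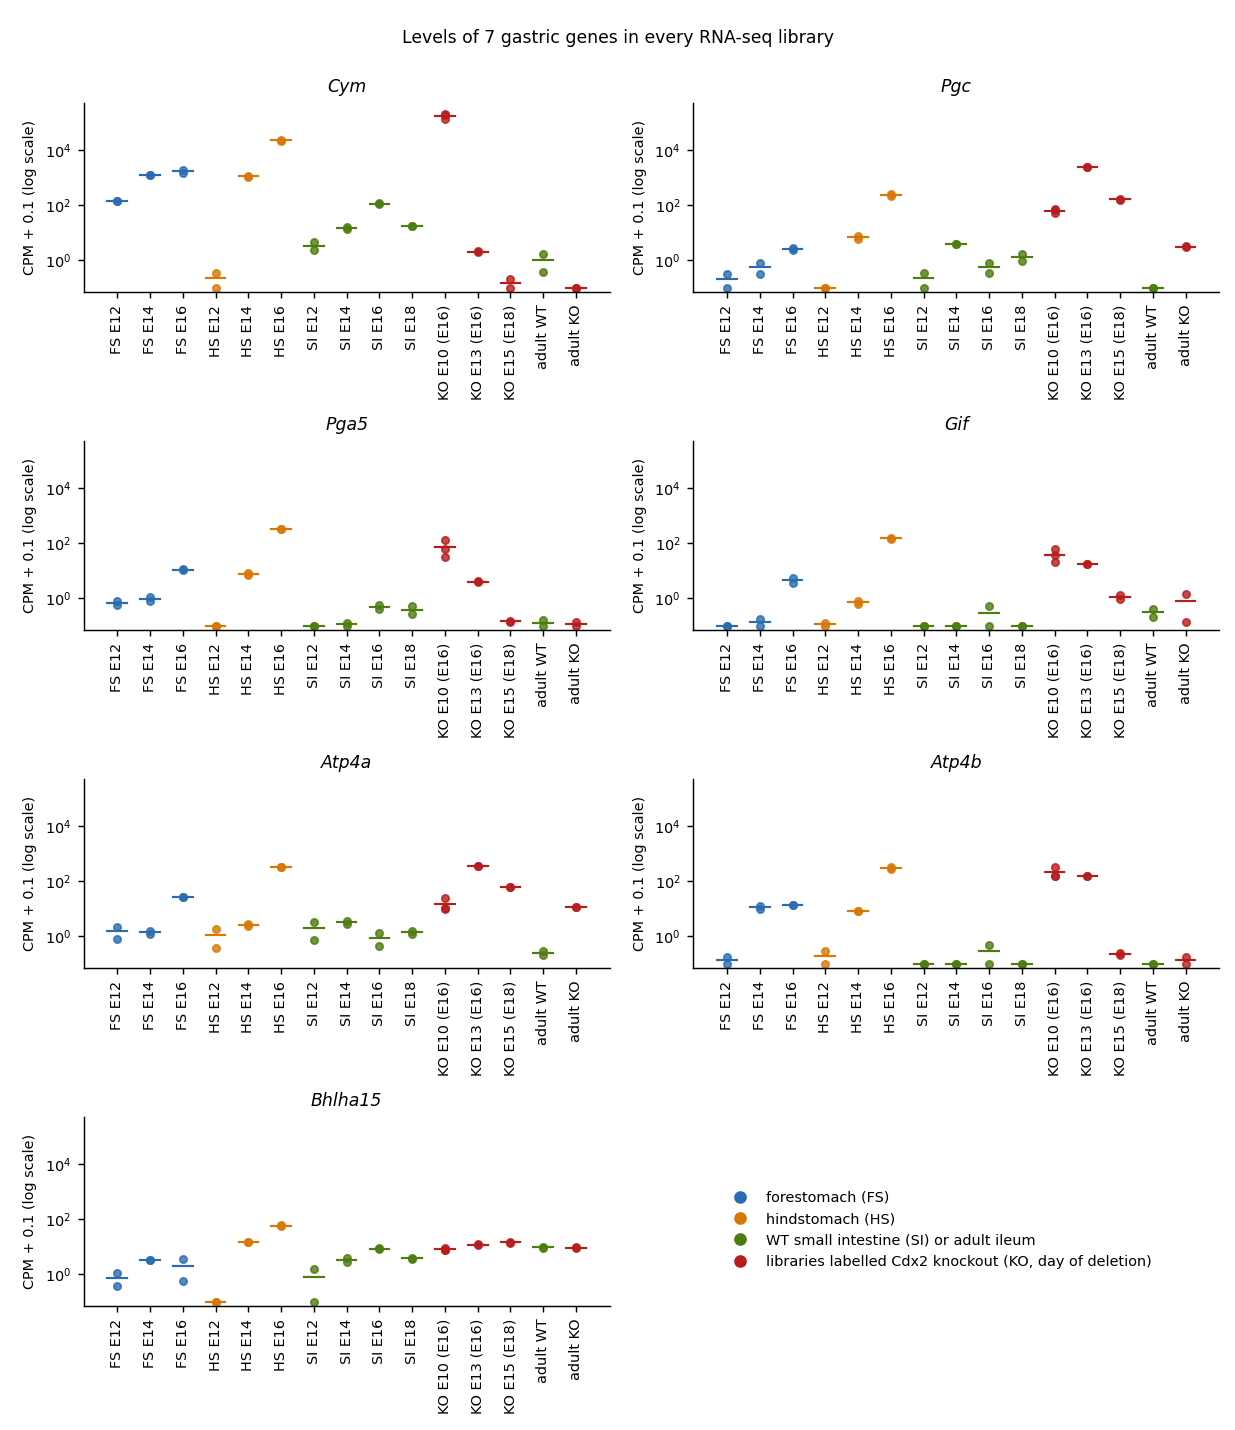
CPM of each gene in each of 31 libraries (points, with 0.1 added on a log axis) and the group mean (line); KO marks libraries labelled Cdx2 knockout by day of deletion, with the day of collection in brackets. Cym peaks in the libraries labelled deleted at E10 (mean 173000 CPM), Pgc in those labelled deleted at E13 (mean 2360 CPM).

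Cym was the most abundant of the proteases in forestomach at E12. Cym had 4055 and 5505 counts there, against 19 and 18 of Pga5 and 0 and 8 of Pgc. At E14 forestomach it had 29671 and 34697. In hindstomach it had 8 and 0 counts at E12, 30134 and 30047 at E14, and 521972 and 500395 at E16. Forestomach at E14 (1270 and 1250 CPM) and hindstomach at E14 (1060 and 1130 CPM) lay close together, and the difference was not called (log2 fold change -0.20 ± 0.28 SE, adjusted p = 0.794). By E16 hindstomach reached 23200 and 21800 CPM and forestomach 1520 and 1800 CPM, a 13.6-fold difference with no overlap (log2 fold change 3.76 ± 0.31 SE, adjusted p = 2.66e-08). Within hindstomach the step from E14 to E16 was 20.5-fold (log2 fold change 4.36 ± 0.32 SE, adjusted p = 1.12e-08). A single transcript thus made up 2.83% and 2.64% of all counted reads in hindstomach at E16.

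Small intestine also held Cym. WT intestine rose from 16.1 and 13.7 CPM at E14 to 110 and 115 CPM at E16, a 7.52-fold increase (log2 fold change 2.91 ± 0.30 SE, adjusted p = 4.17e-07), and stood at 17.8 and 17.2 CPM at E18 (log2 fold change -2.69 ± 0.30 SE, adjusted p = 4.39e-07). The E18 cells were released from villi with EDTA, while the earlier ones were digested with trypsin and sorted for Epcam, so stage and collection cannot be told apart in the last step. Among the 7, 4 were called higher and 2 lower at E16 than at E14 in intestine, where 13.7% and 11.9% of genes were called. Pga5, Gif and Atp4b had at most 9 counts in any of these 4 libraries, and leaving out 1 library brought the 6 calls down to between 2 and 4; those of Cym and Pgc held in each case. From E14 to E16, 11 of 16 acinar markers tested were also called higher in intestine (0.0454% to 0.0489% of counts, then 0.207% to 0.219%). So were 7 of 10 mesenchyme and muscle, 9 of 11 Paneth and goblet and 7 of 8 enterocyte markers. Their part in the rise of Cym was not tested. Between E16 and E18 Cym was called lower, where 22.1% of genes were. In the same contrast 15 of 16 acinar markers tested were called lower (0.207% to 0.219% of counts at E16, 0.00174% to 0.00187% at E18, with 9 of 17 at 0, Cpa1, Prss1 and Ptf1a among them), as were all 10 mesenchyme and muscle markers (0.144% to 0.157%, then 0.000311% to 0.000418%, with Des, Actg2 and Barx1 at 0) and 4 of 5 blood markers tested. Their part in the fall of Cym was not tested. A gap of Cym between hindstomach and intestine was present at E14 and larger at E16. The log2 difference grew by 1.45 ± 0.40 SE (adjusted p = 0.0174), but it missed the threshold when any of 6 of the 8 libraries was left out (adjusted p of 0.051 to 0.0738) and with DESeq2 (adjusted p = 0.124).

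The 2 pepsinogens stood at lower levels than Cym in both WT stomach regions at E14 and E16. Pgc had 0 and 0 counts in the libraries labelled hindstomach at E12, 167 and 206 at E14, and 5566 and 4988 at E16. In CPM the last step ran from 5.89 and 7.75 to 247 and 217, a 34.0-fold increase (log2 fold change 5.09 ± 0.36 SE, adjusted p = 1.21e-08). Pga5 had 0 and 0, then 190 and 209, then 7591 and 7376 counts at the same stages. Its CPM went from 6.70 and 7.86 at E14 to 337 and 321 at E16, a 45.1-fold increase (log2 fold change 5.50 ± 0.50 SE, adjusted p = 4.21e-07). Both genes were absent or nearly so at E12 and both were above every other WT group at E16. At E14 intestine held Pgc at 3.70 and 3.87 CPM, a level whose difference from hindstomach was not called (log2 fold change 0.85 ± 0.34 SE, adjusted p = 0.122). It then fell 7.91-fold in intestine by E16, to 0.252 and 0.710 CPM (log2 fold change -2.98, adjusted p = 1.46e-04). Leaving out 1 library gave log2 fold changes from -3.89 to -2.41. The distance between the organs on the log2 scale grew by 8.07 ± 0.58 SE (adjusted p = 4.90e-08), or by 7.49 to 8.97 without 1 library. That interaction was called for 3 of the 7 genes (Cym, Pgc and Atp4a) and called as larger at E16 for 9.17% of all genes.

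Gif was the lowest of the secreted products in hindstomach at E14. It was at the floor in the libraries labelled hindstomach at E12 (1 and 0 counts), had 14 and 19 counts at E14, and had 3240 and 3518 at E16. The step to 144 and 153 CPM was the steepest of the 7 genes between those stages, at 244-fold (log2 fold change 7.93 ± 0.69 SE, adjusted p = 7.26e-07). Forestomach at E16 had 3.40 and 5.36 CPM. The receptor side of vitamin B12 uptake lay in the intestine: Cubn, the receptor for the intrinsic factor complex, averaged 58.5 CPM in E16 intestine and 1.19 in E16 hindstomach (log2 fold change -5.62 ± 0.71 SE, adjusted p = 6.49e-06). Its partner Amn averaged 240 and 3.65 CPM (log2 fold change -6.04 ± 1.23 SE, adjusted p = 7.02e-04). Of 9 genes listed for vitamin B12 handling, 5 were called lower in hindstomach; the list's median log2 fold change was -1.37, against 0.18 over all genes.

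The 2 pump subunits did not appear together. At E12 Atp4a had 61 and 27 counts in forestomach and 9 and 59 in the libraries labelled hindstomach, where Atp4b had 2 and 0, and 6 and 0. At E14 Atp4b had 230 and 335 counts in forestomach and 223 and 214 in hindstomach, and 0 and 0 in intestine. Its hindstomach level of 7.87 and 8.05 CPM was at least 67.2-fold above the intestinal floor (adjusted p = 1.64e-06). Atp4a stood at 2.29 and 2.63 CPM in E14 hindstomach, at 1.41 and 1.12 in forestomach and at 3.52 and 2.64 in intestine, and neither organ difference was called (adjusted p = 0.497 and 0.824). By E16 hindstomach reached 329 and 324 CPM of Atp4a (132-fold over E14, log2 fold change 7.05 ± 0.68 SE, adjusted p = 3.44e-07) and 282 and 326 CPM of Atp4b (38.2-fold, log2 fold change 5.26 ± 0.45 SE, adjusted p = 3.34e-07). For Atp4a the gap between hindstomach and intestine widened by 9.08 ± 0.96 SE on the log2 scale from E14 to E16 (adjusted p = 2.97e-06), or by 8.43 and 10.19 without E16 intestine replicate 1 or 2.

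The ratio of Atp4a to Atp4b counts sets the subunits against each other within a library. It is not corrected for gene length, so only its change between libraries is read. At E12 it was at least 20.3 and at least 9 in forestomach, and 1.5 and at least 19.7 in the libraries labelled hindstomach. It was 0.143 and 0.0925 in forestomach and 0.291 and 0.327 in hindstomach at E14. At E16 it was 2.07 and 1.95 in forestomach and 1.16 and 0.991 in hindstomach. Every E14 stomach library was below every stomach library of E12 and of E16.

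Other genes of the acid machinery followed in part. Of 17 genes listed for parietal cells, 9 were called higher and 1 lower in hindstomach than in intestine at E16; their median log2 fold change was 3.78 (3.77 with genes at the floor set to their bound), against 0.18 over all genes. Kcne2, a potassium channel subunit needed for acid secretion, averaged 18.7 CPM in E16 hindstomach and was at least 114-fold above E16 intestine, where it had no counts (adjusted p = 2.43e-05). Cckbr, the gastrin receptor, averaged 5.90 CPM and was at least 36.0-fold higher (adjusted p = 7.96e-04). Esrrg, a nuclear receptor of parietal cells, averaged 91.6 CPM in hindstomach and 3.31 in forestomach at E16 (log2 fold change 4.79 ± 0.27 SE, adjusted p = 2.33e-10). Among 7 tested genes of related pumps (sodium pump and non-gastric proton pump subunits), 3 were called higher and 1 lower in hindstomach than in intestine, with a median of 0.37.

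Bhlha15 had the smallest fold of the 7 between E14 and E16. In hindstomach it had 0 and 0 counts at E12, 426 and 377 at E14, and 1345 and 1256 at E16. From E12 to E14 it was at least 158-fold higher (adjusted p = 2.21e-05). The further difference from 15 and 14.2 to 59.7 and 54.6 CPM was just outside the threshold (log2 fold change 1.97 ± 0.76 SE, adjusted p = 0.0529), and it passed with RLE scaling, DESeq2, the fit of these groups alone and the fit of all libraries (adjusted p of 1.54e-05 to 0.0426). At E16 hindstomach stood above intestine at 8.76 and 8.13 CPM, a 6.76-fold difference (log2 fold change 2.76 ± 0.79 SE, adjusted p = 0.0103), which missed the threshold without either intestinal library (adjusted p = 0.0679 and 0.0738). Of 17 pancreatic acinar markers, 16 were detected in hindstomach at E16, all but Amy2a5, and together they made up 0.740% to 0.817% of counts. In E16 intestine 15 were detected, all but Pnlip and Amy2a5, at 0.207% to 0.219%. From E12 to E14 hindstomach, and again from E14 to E16, 11 of 16 acinar markers tested were called higher. Their share of counts was 0.00166% to 0.00224% at E12 and 0.212% to 0.216% at E14. Acinar cells also express Bhlha15, and the markers' part in its differences was not tested.

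Counts of called members in the other WT contrasts were smaller. Between E12 and E14 hindstomach 6 of 7 were called higher, all but Atp4a, against 10.8% of genes, and between E14 and E16 6 of 7, all but Bhlha15, against 16.5%. Without E12 hindstomach replicate 2 the first count stays at 6 with other members: Gif lost its call (adjusted p = 0.0507) and Atp4a gained one (log2 fold change 3.13, adjusted p = 0.0275). From E12 to E14 hindstomach, 11 of 16 acinar markers tested were also called higher (0.00166% to 0.00224% of counts, then 0.212% to 0.216%). From E14 to E16 11 of 16 were again called higher. So were all 10 mesenchyme and muscle markers (0.00722% to 0.00787% at E14) and all 6 immune markers (0.000543% to 0.00066% at E14 and 0.0737% to 0.0898% at E16). The part of these markers in the members' rise was not tested. At E14, hindstomach exceeded forestomach for 3 (Pgc, Pga5 and Gif; 5.62% of genes called higher) and intestine for 4 (Cym, Pga5, Gif and Atp4b; 3.49%). Gif rests on 14 and 19 counts in E14 hindstomach and left the calls against forestomach when any of the 4 libraries was left out (adjusted p of 0.0683 to 0.231), and the call against intestine without E14 intestine replicate 1 (adjusted p = 0.0962). At E12 the libraries labelled hindstomach were lower than forestomach for 3 members (2.83% of genes called lower) and lower than intestine for 2 (3.67%). In each case Cym was one of them, at 0.123 mean CPM against 143 and 3.30, and the others, Pga5 and Bhlha15, had at most 45 counts in any library; no call but that of Cym held without either library labelled hindstomach. The E12 contrasts and the E12 to E14 step rest on libraries whose Cdx2 level is that of E12 intestine.

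In intestine labelled Cdx2 knockout the 7 genes did not move as a block. In the libraries labelled deleted at E10, 6 of 7 were called higher than in E16 WT intestine, all but Bhlha15, where 23.9% of genes were called higher. In those labelled deleted at E13, 5 were called higher and 1, Cym, was called lower, where 18.7% and 20.8% of genes were. In those labelled deleted at E15, collected at E18, 3 were higher (Pgc, Atp4a and Gif) and 1 lower (Cym), where 7.79% and 9.70% were. The medians were 7.49 and 6.34 on the log2 scale in the first 2 contrasts, against -0.10 and -0.05 over all genes. Both are the value of Gif, whose fold rests on 8 and 0 counts in WT. In the third the median was 4.73, or 1.95 with genes at the floor set to their bound, against 0.00 over all genes. The first 2 contrasts share their WT libraries. Markers of other cell types differed as well. All 6 squamous forestomach markers were called higher in the E10 group than in E16 WT intestine and than in the E13 group; their share of counts was 0.0342% to 0.154% in the E10 group, 6.59e-05% to 9.29e-05% in WT (Trp63 and Krtdap at 0) and 2.07e-05% to 3.52e-05% in the E13 group (Krtdap at 0). Of 10 mesenchyme and muscle markers, all detected, 6 were called lower in the E10 group (0.0111% to 0.0189%) and 9 in the E13 group (0.00152% to 0.00162%) than in WT (0.144% to 0.157%). Of 16 acinar markers tested, 3 were called higher and 3 lower in the E10 group (0.0197% to 0.143%), and 1 higher and 11 lower in the E13 group (0.0427% to 0.0443%), against 0.207% to 0.219% in WT. Of 8 enterocyte markers, all detected, 5 were called lower in the E10-labelled group (0.204% to 0.359% of counts against 1.34% to 1.38% in WT), and 3 higher and 1 lower in the E13-labelled group (1.39% to 1.4%). Of 5 blood markers tested, 4 were called lower in the E13-labelled group. In the E15-labelled group 3 of 8 enterocyte markers (2.66% to 2.72% against 4.39% to 4.4% in E18 WT) and 3 of 6 immune markers (0.000772% to 0.000817% against 0.0197% to 0.0198%) were called lower, and 4 of 11 Paneth and goblet markers higher (0.845% to 0.904% against 0.409% to 0.423%). The part of these markers in the members' differences was not tested.

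**Figure D2:**
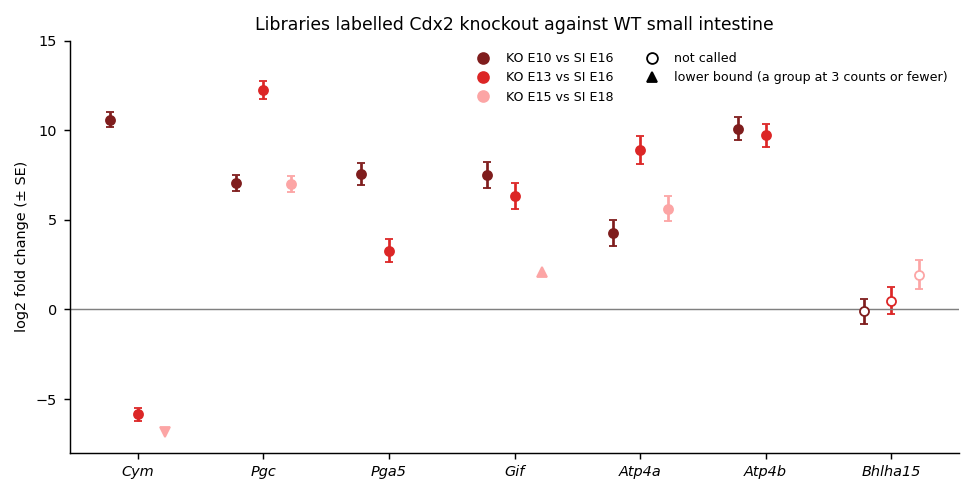
Log2 fold change (points, ± SE) of each gene in 3 groups labelled Cdx2 knockout against stage-matched WT intestine; open points were not called, triangles are bounds where a group was at 3 counts or fewer, and 2 genes at or near the floor (Pga5 and Atp4b, E15-labelled group) have no point. Cym is the only gene with points on both sides of 0 that were called, at 10.59 in the E10-labelled group and -5.86 in the E13-labelled group.

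Cym rose in the E10 group and fell in the E13- and E15-labelled groups. The 3 libraries labelled deleted at E10 held 2697900, 2475473 and 1058691 Cym counts, which is 11.7%, 11.3% and 8.26% of all counted reads. E16 WT intestine held 2179 and 2109. In CPM the levels were 180000, 208000 and 131000 against 110 and 115, a 1540-fold difference on the TMM scale (log2 fold change 10.59 ± 0.41 SE, adjusted p = 3.26e-13). As plain shares of counts these 2 means were 10.4% and 0.0123%. Every library labelled deleted at E10 was also above both hindstomach libraries of E16, by 7.70-fold on the TMM scale (log2 fold change 2.94 ± 0.29 SE, adjusted p = 2.78e-08). The scaling weighs on this figure, since the TMM factors were 0.542 to 0.651 in the former and 1.213 to 1.222 in the latter. As a plain share of counts the means were 10.4% and 2.73%.

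**Figure D3:**
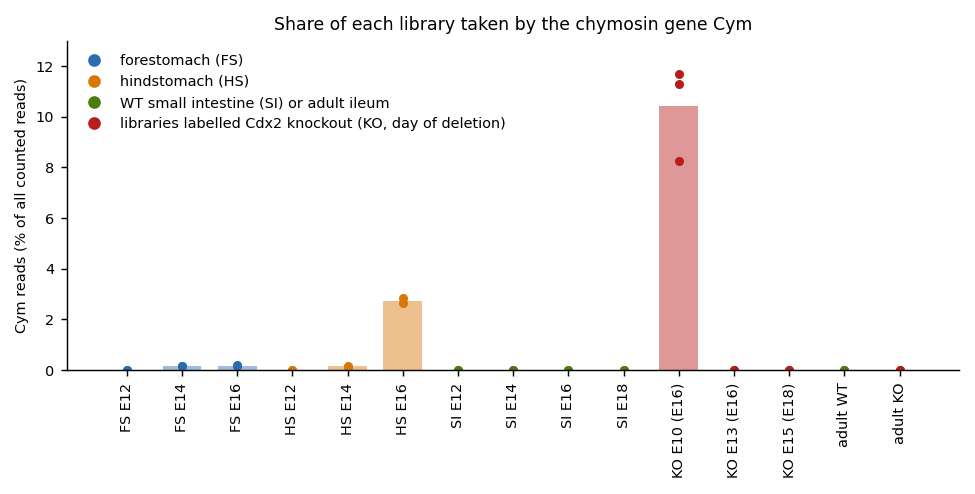
Reads of Cym as a percentage of all counted reads, as points for each library and bars for the group means, on a linear axis. The 3 libraries labelled deleted at E10 lie between 8.26% and 11.7%, hindstomach at E16 at 2.64% and 2.83%, and every other group mean at or below 0.175%.

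In the groups with later labelled dates Cym went the other way. In the E13-labelled group the counts were 45 and 45, or 1.86 and 2.01 CPM, which was 58.0-fold below E16 WT intestine (log2 fold change -5.86 ± 0.37 SE, adjusted p = 1.84e-10). In the E15-labelled group they were 2 and 0, against 216 and 313 in E18 WT intestine, at least 113-fold lower (adjusted p = 5.46e-09). Adult ileum labelled knockout had 0 and 0 counts and the adult controls 26 and 5, which the filter on low counts left untested. Cym was called lower with no filter (adjusted p = 0.042) and in a joint fit of all 31 libraries (adjusted p = 0.00245). The joint fit takes its spread mostly from embryonic libraries, which were made with another kit. Without adult control replicate 2, Cym was also lower. The E10- and E13-labelled groups, both collected at E16, differed 89200-fold (log2 fold change 16.45 ± 0.51 SE, adjusted p = 3.04e-15), with no overlap. They differ in the Cre line, the labelled date and tamoxifen, which cannot be told apart.

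Pgc showed the reverse order. Its levels were 65.7, 72 and 52.9 CPM in the E10-labelled group and 2320 and 2400 CPM in the E13-labelled group. Against the 0.252 and 0.710 CPM of E16 WT intestine these were 133-fold (log2 fold change 7.06 ± 0.46 SE, adjusted p = 2.13e-10) and 4950-fold increases (log2 fold change 12.27 ± 0.51 SE, adjusted p = 1.92e-12). The WT libraries had 5 and 13 counts, and leaving out replicate 1 or 2 of them gave 6.47 or 7.95 in the E10-labelled group and 11.69 or 13.17 in the E13-labelled group on the log2 scale. The E13 group was 10.2-fold above E16 hindstomach (adjusted p = 6.13e-08), and the E10 group 3.64-fold below it (adjusted p = 6.97e-06). These folds and those against WT depend on the scaling. As plain shares of counts the means were 0.169% in the E13 group, 0.00384% in the E10 group, 0.0282% in hindstomach and 5.26e-05% in E16 WT intestine. In the E15-labelled group, Pgc reached 169 and 151 CPM where E18 WT had 0.822 and 1.54, a 129-fold difference (log2 fold change 7.01 ± 0.43 SE, adjusted p = 1.76e-09). Leaving out 1 library gave log2 fold changes from 6.7 to 7.6. Adult ileum labelled knockout had 72 and 43 counts against 0 and 0, at least 16.1-fold higher (adjusted p = 0.00642). Pgc was thus called higher in each of the 4 groups labelled knockout; the adult call was lost without either adult library labelled knockout (adjusted p = 0.0587 and 0.0513).

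Pga5 was higher in the E10-labelled group than in the E13-labelled group, as Cym was, but it was called above WT in both groups. It stood at 59.8, 133 and 30.1 CPM in the E10-labelled group, against 0.302 and 0.491 in E16 WT intestine (log2 fold change 7.54 ± 0.61 SE, adjusted p = 7.58e-09, and 6.9 to 7.92 without 1 library). The E13-labelled group had 3.8 and 4.01 CPM (log2 fold change 3.29 ± 0.64 SE, adjusted p = 3.15e-04, and 2.98 to 3.67 without 1 library). Both were below the 337 and 321 CPM of E16 hindstomach, by 4.42-fold and 84.0-fold (adjusted p = 7.18e-05 and 1.54e-08). The E15-labelled libraries had 1 and 1 counts, and 5 and 3 in E18 WT intestine. The 2 groups labelled deleted and collected at E16 thus differed 19.0-fold in Pga5 and 37.1-fold in Pgc, in opposite directions (adjusted p = 3.02e-07 and 1.89e-11). Without replicate 2 of the E10 group the log2 difference in Pga5 was 3.55, against 4.25 with it.

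Gif rose with both. It was at 35.7, 58.6 and 20.6 CPM in the E10-labelled group and at 17.1 and 17.4 CPM in the E13-labelled group, while E16 WT intestine had 8 and 0 counts (adjusted p = 2.53e-07 and 3.10e-06). Those few reads set the size of its fold: without WT replicate 2 or 1 the log2 fold change was 6.55 or 12.86 in the E10-labelled group and 5.4 or 11.71 in the E13-labelled group. Both groups were below E16 hindstomach, 3.87-fold and 8.61-fold (adjusted p = 0.00119 and 1.25e-04). The difference between them was 2.23-fold (adjusted p = 0.0408) and was lost without any of 4 of the 5 libraries (adjusted p of 0.0548 to 0.194). In the E15-labelled group, Gif had 24 and 22 counts against 0 and 0 in E18 WT, at least 4.22-fold higher (adjusted p = 0.00364). Of the 9 genes listed for vitamin B12 handling, 2 were called higher and 2 lower at that date (median -0.54). One of the latter was the receptor gene Cubn, with a mean of 46.3 CPM against 888 (log2 fold change -4.26 ± 0.60 SE, adjusted p = 2.77e-05). In adult ileum 3 of 8 tested genes of the list were called lower, and Cubn averaged 35.9 CPM in the libraries labelled knockout and 1500 in controls (log2 fold change -5.39 ± 0.33 SE, adjusted p = 0.00194). Gif itself had 1 and 18 counts in the adult libraries labelled knockout and 5 and 2 in controls, and was not tested.

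The 2 subunits of the proton pump came apart in these libraries. In the E10-labelled group, Atp4b was at 155, 314 and 151 CPM and Atp4a at 10.2, 23.7 and 10. Compared with E16 hindstomach, Atp4b was not called (log2 fold change -0.56 ± 0.33 SE, adjusted p = 0.148, on the TMM scale; as plain shares of counts the means were 0.0122% and 0.037%) and Atp4a was 22.2-fold lower (log2 fold change -4.47 ± 0.51 SE, adjusted p = 2.22e-07). In the E13-labelled group, Atp4a was at 365 and 364 CPM and Atp4b at 157 and 159. There neither was called against E16 hindstomach, Atp4a with a log2 fold change of 0.16 ± 0.51 SE (adjusted p = 0.803) and Atp4b with -0.95 ± 0.37 SE (adjusted p = 0.0364, under the fold change minimum). As plain shares of counts both were below hindstomach, Atp4a at 0.0262% against 0.0397% and Atp4b at 0.0113% against 0.037%. Against E16 WT intestine both were called higher in both groups. Atp4a, at 7 and 22 counts there, was 19.1-fold and 474-fold higher (adjusted p = 2.94e-05 and 1.60e-08). Leaving out WT replicate 1 or 2 moved its log2 fold change from 4.26 to 3.6 or 5.36 in the E10-labelled group, and from 8.89 to 8.24 or 10 in the E13-labelled group. For Atp4b the WT libraries had 0 and 7 counts, so its fold is set by very few reads (adjusted p = 6.77e-10 and 3.28e-09).

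The split was wider in the E15-labelled group. Atp4a had 1207 and 1589 counts, or 62.4 and 60.7 CPM, against 1.40 and 1.15 CPM in E18 WT intestine (48.7-fold, log2 fold change 5.61 ± 0.70 SE, adjusted p = 6.43e-06). Atp4b had 2 and 4 counts in the same libraries and 0 and 0 in WT. Adult ileum labelled knockout repeated this pattern, with 280 and 164 counts of Atp4a and 0 and 1 of Atp4b. Atp4a was at least 62.1-fold above the adult controls, which had 3 and 2 counts (adjusted p = 0.00153). In adult ileum 2 of the 3 members tested were called higher (Pgc and Atp4a), where 8.41% of genes were.

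**Figure D4:**
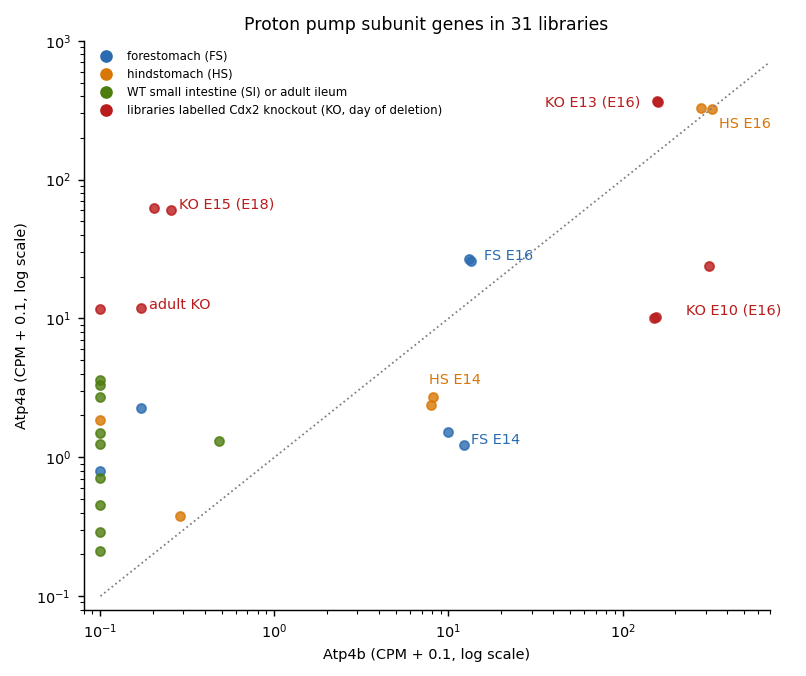
Atp4a against Atp4b in each of 31 libraries (CPM with 0.1 added, both axes on a log scale); colours mark organ and label, and along the dotted line the 2 values are equal, without correction for gene length. Libraries labelled deleted at E10 lie right of and below the line, with 151 to 314 CPM of Atp4b, while those labelled deleted at E15 and the adult ones labelled knockout lie at the left edge, with at most 4 counts of Atp4b.

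The ratio of Atp4a to Atp4b counts puts a number on the split. It was 0.0655, 0.0757 and 0.0662 in the E10-labelled group, and 2.33 and 2.29 in the E13-labelled group. In the E15-labelled group it was at least 402 in 1 library and 397 in the other. In adult ileum labelled knockout it was at least 93.3 and at least 54.7. The 4 groups labelled knockout thus spanned both sides of the hindstomach values of E16, 1.16 and 0.991, and did not overlap them. Embryonic WT intestine also held Atp4a with no counts of Atp4b, except for 7 counts in E16 replicate 2. Its ratio was at least 6 and at least 33.3 at E12, and at least 86.3 and at least 22.3 at E14. It was at least 2.33 and 3.14 at E16, and at least 5.67 and at least 7 at E18.

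Kcne2 went with Atp4b. It averaged 16.6 CPM in the E10-labelled group and 3.87 in the E13-labelled group, against 0 counts in E16 WT intestine (at least 101-fold and 23.6-fold, adjusted p = 6.61e-06 and 1.19e-04), and 0.045 CPM in the E15-labelled group. Slc9a4, a sodium-proton exchanger of parietal cells, was called higher than WT in all 4 groups labelled knockout, also where Atp4b was near the floor. It averaged 25.9 CPM in the E10-labelled group against 0.328 in WT (log2 fold change 6.33 ± 0.88 SE, adjusted p = 9.34e-06). It averaged 101 CPM in the E13-labelled group against the same WT libraries (log2 fold change 8.29 ± 0.94 SE, adjusted p = 1.49e-06) and 117 CPM in the E15-labelled group against 0.165 (log2 fold change 9.21 ± 1.01 SE, adjusted p = 4.24e-06). The E16 WT libraries had 0 counts in one and 12 in the other, and the E18 ones 0 and 6, so 1 library sets the size of these folds. In adult ileum it averaged 44.3 CPM against 0.755 (log2 fold change 5.88 ± 0.39 SE, adjusted p = 0.00227). Of the 17 genes listed for parietal cells, 9 were called higher and 6 lower in the E10-labelled group, 10 and 1 in the E13-labelled group, and 9 and 1 in the E15-labelled group. The list's medians with floor genes at their bounds were 1.37, 2.53 and 1.16 on the log2 scale, against -0.10, -0.05 and 0.00 over all genes; the fitted medians were 2.43, 3.91 and 2.5.

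Other proteases and mucous cell genes frame these values. Ctse, the aspartic protease cathepsin E of gastric surface epithelium, averaged 1090 CPM in the E10-labelled group and 1910 in the E13-labelled group, against 7.5 in E16 WT intestine (log2 fold change 7.18 ± 0.52 SE and 7.99 ± 0.54 SE, adjusted p = 4.48e-10 and 5.67e-10). It was called in the same direction in both, unlike Cym. Its list did not move one way: of 7 aspartic protease genes outside the members, 5 were tested, and 2 were called higher and 2 lower in the E10-labelled group (median -0.11) and 1 higher and 1 lower in the E13-labelled group (median 0.27). Chia1, an acidic chitinase of mouse chief cells, averaged 133 CPM in the E13-labelled group and 0.0857 in the E10-labelled group, at least 359-fold apart (adjusted p = 2.52e-07). The other called genes of its list went the other way: of 10 genes listed for chief cells, 8 were tested, and 4 were called higher and 1, Chia1, lower in the E10 than in the E13 group (median 0.94). Against E16 WT intestine 4 of the 8 were called higher in the E10-labelled group, and 2 higher and 1 lower in the E13-labelled group (medians 1.22 and 0.18, with floor genes at their bounds). Gkn1, a gastrokine of gastric surface mucous cells, averaged 2360 and 1250 CPM in the E10- and E13-labelled groups and 11 CPM in E16 hindstomach. Of 8 genes listed for gastric mucous cells, 7 were tested and all 7 were called higher in both contrasts. Their median with floor genes at their bounds was 9.10 and 7.37, above that of the 7 secretory genes, but the lists were not tested against each other.

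Bhlha15 was the 1 member not called against WT intestine in either the E10- or the E13-labelled group. It stood at 7.55, 7.38 and 8.65 CPM in the E10-labelled group and at 11.9 and 11.6 in the E13-labelled group, against 8.76 and 8.13 in E16 WT intestine (log2 fold change -0.11 ± 0.69 SE and 0.48 ± 0.75 SE, adjusted p = 0.921 and 0.617). The E15-labelled group had 15.1 and 13.2 CPM against 3.45 and 3.84 (log2 fold change 1.95 ± 0.79 SE, adjusted p = 0.0707). The difference passed in the fit of these groups alone and in the fit of all libraries (adjusted p = 1.36e-34 and 0.0486). The first of these takes its spread from 4 libraries only. The difference stayed outside the threshold with RLE scaling and with DESeq2. Leaving out 1 library gave log2 fold changes from 1.85 to 2.04. In adult ileum it was at 9.23 and 8.56 CPM in the libraries labelled knockout and at 8.94 and 10 in controls (adjusted p = 0.717). Its levels in the E10- and E13-labelled groups were 7.28-fold and 4.85-fold below E16 hindstomach (adjusted p = 0.00129 and 0.0163). The second call was lost without 3 of the 4 libraries. In the same contrasts 8 and 14 of 16 acinar markers tested were called lower and 0 higher. Their part in the difference of Bhlha15 was not tested.

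The libraries labelled knockout were set against the E16 hindstomach for all 7 genes. In the E10-labelled group, 1 member was called higher (Cym) and 5 lower, where 21.6% and 34.6% of genes were. In the E13-labelled group, 1 was higher (Pgc) and 4 lower (Cym, Pga5, Gif and Bhlha15), where 19.7% and 28.8% of genes were. Directly compared, the E10 group exceeded the E13 group in Cym, Pga5 and Gif and was below it in Pgc and Atp4a, where 28.1% and 29.3% of genes were called. Because the TMM factors differ between these groups, the folds on plain shares differ from those given; Pga5, for example, was 0.00433%, 0.00028% and 0.04% of counts in the E10-labelled group, the E13-labelled group and hindstomach. The 2 contrasts with hindstomach share its libraries. In them 8 of 16 acinar markers tested were called lower in the E10-labelled group and 14 in the E13-labelled group. All 10 mesenchyme and muscle markers were called lower in both. All 6 squamous markers were called higher in the E10-labelled group and lower in the E13-labelled group. Of 11 Paneth and goblet markers, 7 were called higher and 1 lower in the former, and 9 higher in the latter. The part of these markers was not tested.

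The 2 groups with later labelled dates were also set against each other. The difference of the E13-labelled group from E16 WT was compared with that of the E15-labelled group from E18 WT. The interaction was called for 4 members (Pgc, Pga5, Atp4a and Cym), in each case more positive for the E13-labelled group, where 19.8% of all genes were. For Cym, which was lower than WT at both dates, this is a smaller drop in the E13-labelled group. For Pgc it was 5.26 ± 0.72 SE on the log2 scale (adjusted p = 8.68e-06; 6.15 without E16 WT replicate 2, and 4.67 without E18 WT replicate 2), and for Atp4a 3.28 ± 1.06 SE (adjusted p = 0.0168). For Pga5 and Cym the E15 group was at the floor, so no size is given (adjusted p = 0.00799 and 0.0403). For Atp4a the value ranged from 2.63 to 4.39 when 1 library was left out (the lowest without E16 WT replicate 1). Its call was lost without E16 WT replicate 1 or either E18 WT library (adjusted p of 0.0556 to 0.0822). The Cym call was lost without any of 7 of the 8 libraries (adjusted p of 0.054 to 0.339), and the Pga5 call without E18 WT replicate 1 (adjusted p = 0.0828). The dates also differ in the stage at collection and in how cells were released, which cannot be told apart here.

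Across the 15 group means the 7 genes were alike to differing degrees. Pearson's r of mean log2 CPM was 0.91 for Pgc with Atp4a, 0.91 for Pga5 with Atp4b and 0.83 for Cym with Pga5. Gif was close to several members, with 0.87 for Atp4b, 0.86 for Pga5, 0.82 for Atp4a and 0.8 for Pgc. The value was 0.68 for the subunits Atp4a and Atp4b, 0.22 for Cym with Pgc and 0.18 for Cym with Atp4a. Among 17175 genes the closest to Atp4b was Kcne2 (r = 0.978), which was also closest to Pga5 (r = 0.949). Closest to Cym were Myo1h (0.93), Hcar1 (0.914) and Kcna2 (0.876), and closest to Pgc after Atp4a were S100b (0.907) and Gkn1 (0.884). Adcyap1r1 headed the list for Gif (0.924) and for Atp4a (0.923), and Ern2 that for Bhlha15 (0.89). These are descriptions over 15 means, in which both genes of a pair share libraries and depth. The adult means were scaled apart and came from another library kit. Over the 13 embryonic groups alone the closest gene was Slc9a4 for Pgc (0.917) and Pllp for Bhlha15 (0.903). For Gif it was Car5b (0.94, with Adcyap1r1 also at 0.94). It was unchanged for Cym, Pga5, Atp4a and Atp4b.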

How the data were processed

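Gut epithelium, sorted or released with EDTA, was sequenced as RNA in single-end reads of 75 bp. The authors deposited one table of raw read counts per gene symbol, with no normalization. STAR 2.5.3a, HTSeq and mm9 are named in the submitters' processing notes. The strand setting is not given in the sources used here, so overlapping or antisense genes may share reads. Each adult column has 2 blank cells, which were closed up; the 7 genes lie above the first. A further 2 columns match no sample and were not used. The other assays of the series were not used here.

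The test was edgeR 4.0.16 under R 4.3.3 (TMM, filterByExpr at a minimum count of 10, glmQLFit, glmQLFTest), with the 27 embryonic libraries in one fit and the 4 adult ones in another, over 19 comparisons. The adult libraries were made with another kit (TruSeq) than the embryonic ones (SMARTer), so they were fitted apart. Standard errors come from the log2 fold change and F (their ratio, with F under a square root). Bounds were set against 3 counts per library. The procedure was also run on simulated data, whose outcome is not given here. DESeq2 1.42.0 was an alternative.

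All 7 genes are described in every group. Genes of other lists are named when among the 3 largest called changes of their list in a comparison, or when set beside a member. Likeness was ranked by Pearson's r over group means. The members and lists were chosen with earlier results of these data known.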

Additional observations from a re-analysis of the deposited data

Results flagged for a closer look

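A difference of effects between stages or dates was called for 7 results, each by edgeR's quasi-likelihood test of the interaction. The gap between hindstomach and small intestine differed between E16 and E14 for Pgc (adjusted p = 4.9e-08), Atp4a (adjusted p = 2.97e-06) and Cym (adjusted p = 0.0174). The difference from stage-matched WT intestine differed between the groups labelled deleted at E13 and at E15 for Pgc (adjusted p = 8.68e-06), Pga5 (adjusted p = 0.00799), Atp4a (adjusted p = 0.0168) and Cym (adjusted p = 0.0403). No group holds 4 or more libraries, so single libraries were not tested for standing apart.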

How the results depend on the processing

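Of 129 gene values, the direction and the side of the threshold were the same for 129 without the low-count filter, 127 under RLE scaling, 128 with no fold minimum, 121 in DESeq2 and 123 with all 31 libraries in one fit. The fit of only the groups compared gave 100 of 109, and leaving out each library 536 of 593. Under RLE the all-gene median shifted by up to 0.15 (log2). The cause of the changes that follow was not tested. With only the groups compared fitted, the members called in hindstomach against forestomach at E12 went from 3 to 1 (all genes, from 1226 to 1103). In hindstomach against intestine at E12 they went from 2 to 0 (all genes, from 1599 to 122). There edgeR tested 2 members, with 0 at an unadjusted p below 0.05, and DESeq2 called 3. In intestine at E18 against E16 they went from 1 to 2 (all genes, from 7260 to 7586), and DESeq2 called 4. Leaving out 1 library gave ranges of 1 to 3 at E12 in both contrasts, 2 to 4 for intestine at E16 against E14, 1 to 3 for E18 against E16, 1 to 4 for the difference between later labelled dates and 1 to 3 in adult ileum. The log2 fold change ranged from -8.11 to 0 for Bhlha15 in hindstomach against intestine at E12, and between E14 and E16 intestine from 0 to 6.31 for Gif and from 0 to 6.24 for Atp4b. With no scaling factor, the mean CPM in the group that is highest under TMM was 104000 for Cym (173000 with TMM), 1690 for Pgc (2360), 400 for Pga5 (329), 181 for Gif (148), 262 for Atp4a (365; 371 under RLE; unscaled, E16 hindstomach is the higher group, at 0.0397% of counts against 0.0262%), 370 for Atp4b (304) and 69.6 for Bhlha15 (57.2).

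A fit with the replicate number as a block kept all 129 gene values on their side of the threshold. Same-numbered libraries deviated together with r from -0.09 to 0.2 over 66 pairs of groups, with 2 pairs over 0.1. These values cannot show whether same-numbered libraries of a stage came from the same animals or batch. With the block, the members called stayed at 7 for hindstomach against intestine at E16, 6 for the E10-labelled group and 6 for the E13-labelled group. With 2 or 3 libraries a group, a p above the threshold does not show that levels were alike, and genes at the floor were not detectable at this depth.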
